A study of Homo sapiens with 16 samples.

Results

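The 10 long noncoding RNAs NEAT1, MALAT1, GAS5, SNHG1, SNHG5, SNHG15, TUG1, PVT1, H19 and MEG3 were followed in SH-SY5Y cells, a human neuroblastoma line, before and after DNA damage by the topoisomerase poison doxorubicin. They were chosen by name, as abundant transcripts that the literature links to stress, and all 10 had a row among the 26410 genes of the deposited tables. Every library came from a clone that had been taken through an editing protocol with Cas9 and a donor carrying GFP and puromycin resistance. The clones labelled TRPM2 KO, KO11 and KO28, had received guides against TRPM2, which encodes a calcium-permeable channel, and the Scr clones, Scr13 and Scr16, had received a scrambled guide. Each clone gave 2 libraries without drug and 2 after 24 h of doxorubicin, so that the 4 groups (Scr untreated, KO-labelled untreated, Scr with doxorubicin, KO-labelled with doxorubicin) held 4 libraries each. The deposited column headers name the untreated libraries by the start of the time course and the treated ones by 24 h. The paper describes culture for 24 h with or without drug, so the collection time of the untreated libraries is uncertain. Doxorubicin was given at 0.3 µM, as in the sample labels and the methods, although the text deposited for the series has 3 µM. The methods describe the replicates as biological, but they share a clone and each genotype is represented by 2 clones of 1 cell line, so the p-values measure the spread between these libraries. RNA was selected on poly(A), and between 10481177 and 25086085 reads per library fell on genes.

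In untreated cells, TRPM2 reads were higher in the libraries labelled TRPM2 KO. Over the whole gene, the untreated libraries labelled TRPM2 KO held 1.93 and 2.23 normalized CPM in KO11 and 1.41 and 2.19 in KO28, while the untreated Scr13 libraries held 0.118 and 0.115 and both Scr16 libraries were at 0. After doxorubicin the KO-labelled libraries held between 0.658 and 1.83 normalized CPM and the Scr libraries between 0.0594 and 1.33, so that the treated groups overlapped. The edit was described as removing the start of the protein and shifting the frame of the rest, and reads summed over all exons are no check of such an edit, so every direction between genotypes is given for libraries labelled TRPM2 KO. CDKN1A, which encodes the p21 inhibitor of the cell cycle, separated the labels without overlap, at 136 ± 16.5 normalized CPM (SD, n = 4) in KO-labelled and 57.0 ± 15.2 in Scr libraries without drug (adjusted p 3.36e-06, limma), and 736 ± 45.3 and 337 ± 25.1 with doxorubicin (adjusted p 1.98e-09). Of the 13 sympathetic and neuroblastoma genes used to check the cell line, 12 passed the filter on low values in each comparison between genotypes. DBH, which makes noradrenaline, was at 1635 ± 219 normalized CPM (SD, n = 4) in untreated Scr libraries, whereas TH, the tyrosine hydroxylase at the head of the same pathway, was at 0.287 and 0.278 in the untreated Scr and KO-labelled groups.

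As background, long noncoding RNAs act as RNA and not through a protein. NEAT1 is the scaffold of paraspeckles, nuclear bodies that assemble on its long isoform, and MALAT1 resides in nuclear speckles, where splicing factors are stored. GAS5 and the SNHG genes carry small nucleolar RNAs in their introns, and their spliced RNAs are turned over during translation by nonsense-mediated decay. H19 and MEG3 are expressed from the maternal copies of imprinted loci, PVT1 lies beside MYC, and TUG1 shares a promoter region with MORC2. NEAT1, PVT1, TUG1 and several SNHG genes have been described as targets of p53, the transcription factor that doxorubicin activates.

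On GRCh38, NEAT1 (ENSG00000245532) lies at chr11:65422774-65445540 and MALAT1 (ENSG00000251562) at chr11:65497688-65506516, both on the plus strand, GAS5 (ENSG00000234741) at chr1:173863900-173868882 and H19 (ENSG00000130600) at chr11:1995176-2001470, both on the minus strand, TUG1 (ENSG00000253352) at chr22:30969245-30979395 and MEG3 (ENSG00000214548) at chr14:100779410-100861031, both on the plus strand.

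The ends of these transcripts matter for what the libraries can hold. The 5′ ends below, read from GENCODE release 29 on GRCh38, are shown because hosts of small nucleolar RNAs often begin like ribosomal protein mRNAs, with a C followed by a run of pyrimidines (the 5′ TOP sequence). The last 2 lines are shown because the long NEAT1 isoform and MALAT1 lack a usual poly(A) tail, whereas poly(A) selection can hold on to a run of A inside a transcript. Capitals mark the leading run of C and T in the 5′ ends, and the longest run of A in the last 2 lines.
GAS5-210, chr1:173867960-173867989, minus strand: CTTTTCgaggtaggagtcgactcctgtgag
SNHG5-202, chr6:85678704-85678733, minus strand: CTTTTacgtcggccttcgcgagcgtctggg
SNHG1-209, chr11:62855856-62855885, minus strand: CTCatttttctactgctcgtggtaagtggc
NEAT1-202, chr11:65422798-65422827, plus strand: ggagttagcgacagggagggatgcgcgcct
MALAT1-202, chr11:65506088-65506117, plus strand: tttctagcttAAAAAAAAAAAAAgcaaaag
NEAT1-202, chr11:65440839-65440868, plus strand: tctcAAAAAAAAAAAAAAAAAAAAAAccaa

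A start with C and at least 4 more pyrimidines, read only on the transcript's own strand, was annotated for 6 of 29 transcripts of GAS5, 3 of 23 of SNHG5 and 1 of 25 of SNHG1, and for none of the 10 of SNHG15 or of the 8 of NEAT1. Among all annotated transcripts 2.41% began this way. At least 1 such transcript was found for 11 of 21 other hosts of small nucleolar RNAs and for 15.8% of the 15038 genes that were tested over the 16 libraries and annotated. The run of A shown for MALAT1 is 13 bases long and begins at position 8337 of its 8708-base transcript, and that of NEAT1 is 22 bases long, starting at position 18046 of 22743. The deposited counts do not separate isoforms, so the short, polyadenylated NEAT1 and the long one are 1 value here.

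Per kilobase of annotated exon, TUG1 was highest, at 37.8 ± 2.41 normalized CPM per kb (SD over the 16 libraries), followed by GAS5 at 31.0 ± 4.87, SNHG5 at 23.0 ± 2.87, MALAT1 at 18.5 ± 5.97, SNHG1 at 11.5 ± 1.20, NEAT1 at 6.54 ± 3.00, SNHG15 at 4.68 ± 1.01, H19 at 3.43 ± 1.52, PVT1 at 0.890 ± 0.234 and MEG3 at 0.00290. The divisor was the union of all annotated exons of a gene, 22767 bases for NEAT1 and 3631 for GAS5. Single transcripts can be shorter, such as GAS5-210 at 1698 bases, so the order holds for this scale only. Every member's range over the libraries overlapped that of the next one down except for PVT1 and MEG3. The order pools both treatments and did not hold in every group: NEAT1 was below SNHG15 without drug (3.90 against 5.33 normalized CPM per kb in Scr, 3.98 against 4.35 in KO-labelled libraries), and in treated KO-labelled libraries MALAT1 was above SNHG5 (26.0 against 20.2), NEAT1 above SNHG1 (10.27 against 10.15) and H19 above SNHG15 (5.26 against 4.79). Without division by length, TUG1 was at rank 5, MALAT1 at rank 9, NEAT1 at rank 11 and GAS5 at rank 13 of 5104 long noncoding rows, as their choice for abundance would have it, while PVT1 was at rank 383 and MEG3 at rank 3507. Together the 10 RNAs took between 0.0824% and 0.121% of the reads of a library.

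**Figure D1:**
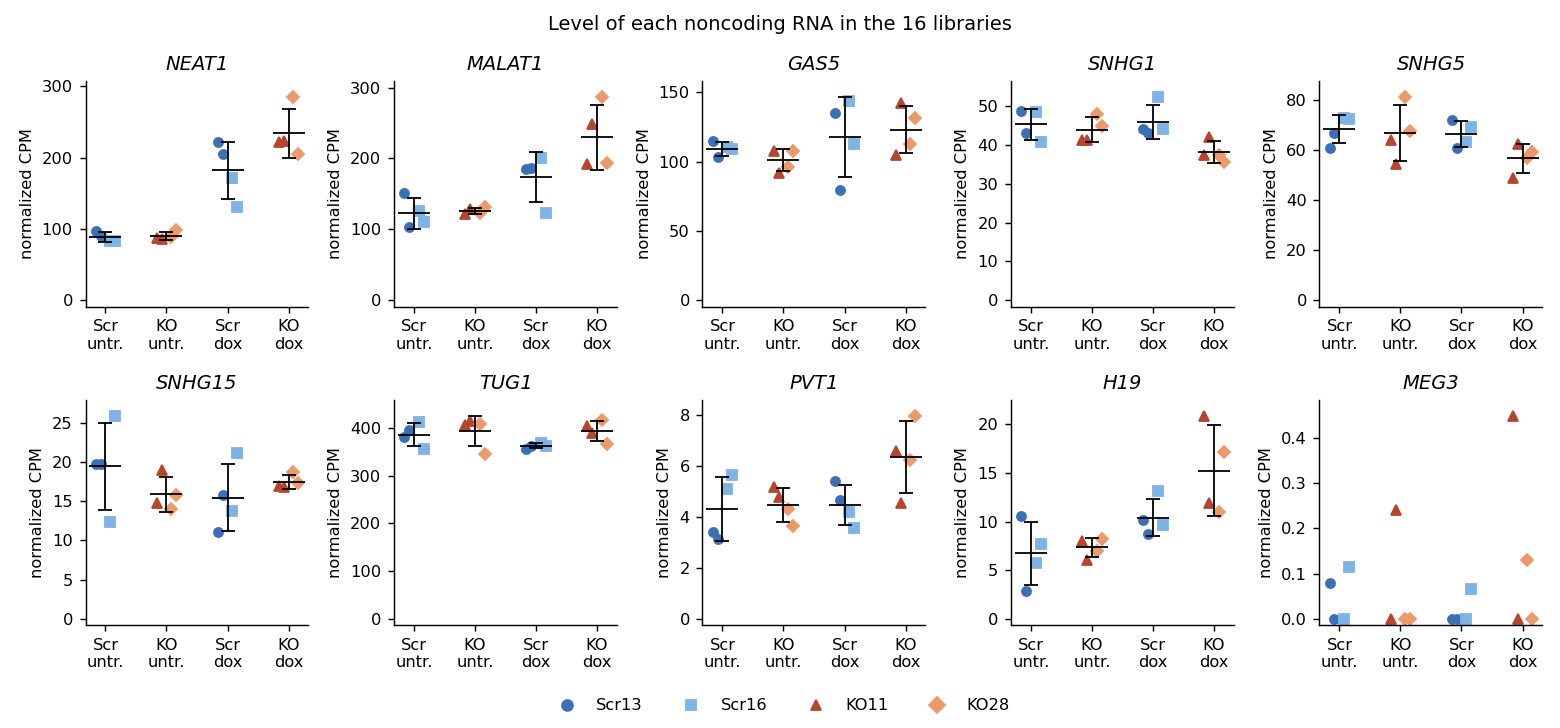
Normalized CPM of each noncoding RNA (vertical axes, linear, a separate scale for each gene) in the 16 libraries, grouped by genotype label and treatment (untr., untreated; dox, doxorubicin), with 1 point per library, shape and colour for the clone, and the mean ± SD of the 4 libraries in black (not drawn for MEG3). NEAT1 with doxorubicin lies at 131 or above in all 8 libraries and at 99.1 or below in all 8 untreated ones, and MEG3 is at 0 in 10 of the 16 libraries.

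Doxorubicin raised NEAT1 and MALAT1 in both genotypes. Among the 9 members tested in Scr clones, these 2 were called higher and none lower, at an adjusted p (Benjamini-Hochberg over all genes, limma) under 0.05, where 12.3% of 14378 genes were called in either direction and 7.10% were called higher. In the KO-labelled clones 4 of 9 members were called higher (NEAT1, MALAT1, GAS5 and H19) and none lower, where 19.6% of 14513 genes were called in either direction and 11.3% were called higher. Over all genes tested the median difference was -0.01 in Scr and 0.02 in KO-labelled clones on the log2 scale, and over the 9 members it was 0.06 and 0.27. Among all long noncoding genes tested, 31 genes higher and 12 lower of 1157 (3.72%) were called in Scr and 90 higher and 17 lower of 1133 (9.44%) in KO-labelled clones. Differences are given on the scale of log2(normalized CPM + 1), which understates the change of low genes.

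NEAT1 had the largest estimate of the 9 members in both genotypes. Untreated Scr libraries held 97.3 and 90.8 normalized CPM in Scr13 and 83.2 and 83.5 in Scr16, and with doxorubicin they held 221 and 205 in Scr13 and 172 and 131 in Scr16. Untreated KO-labelled libraries held 87.4 and 86.4 in KO11 and 89.3 and 99.1 in KO28, against 222 and 224 in KO11 and 284.5 and 204 in KO28 with doxorubicin. The lowest treated values were those of Scr16. NEAT1 alone of the 9 members did not overlap between treatments in Scr, where the groups of 17.1% of all genes tested did not, and in KO-labelled clones NEAT1, MALAT1 and H19 did not, where those of 19.8% did not. The difference was 1.01 ± 0.09 (log2, SE; adjusted p 5.91e-07, limma) in Scr and 1.35 ± 0.09 (adjusted p 6.25e-12) in KO-labelled clones. Only 1.04% and 0.868% of the genes tested had a larger rise. By clone, the mean rose 2.57-fold in KO11, 2.60-fold in KO28, 2.27-fold in Scr13 and 1.82-fold in Scr16.

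MALAT1, a single-exon nuclear transcript encoded just downstream of NEAT1, rose less. In Scr clones it went from 152 and 103 (Scr13) and 125 and 110 (Scr16) normalized CPM to 185 and 187 (Scr13) and 201 and 123 (Scr16), so that Scr16 replicate 2 with doxorubicin fell inside the untreated range. In KO-labelled clones it went from between 122 and 131 to 192 and 249 in KO11 and 286 and 193 in KO28, with no overlap. The difference was 0.49 ± 0.13 (log2, SE; adjusted p 0.0145, limma) in Scr and 0.84 ± 0.10 (adjusted p 3.68e-07) in KO-labelled clones. The Scr call did not hold without clone Scr13 (adjusted p 0.254, difference 0.41) or without Scr16 (adjusted p 0.0503, difference 0.57). That call was lost in 8 alternatives in all, among them DESeq2, no filter and leaving out single libraries. The mean ratio of NEAT1 to MALAT1 in a library moved from 0.736 ± 0.109 (SD, n = 4) in untreated Scr libraries to 1.05 ± 0.144 with doxorubicin, and from 0.716 ± 0.0346 to 1.03 ± 0.109 in KO-labelled ones. The ratio ranges overlapped in Scr, where the highest untreated ratio was 0.881 and the lowest treated one 0.854, and did not overlap in KO-labelled libraries.

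**Figure D2:**
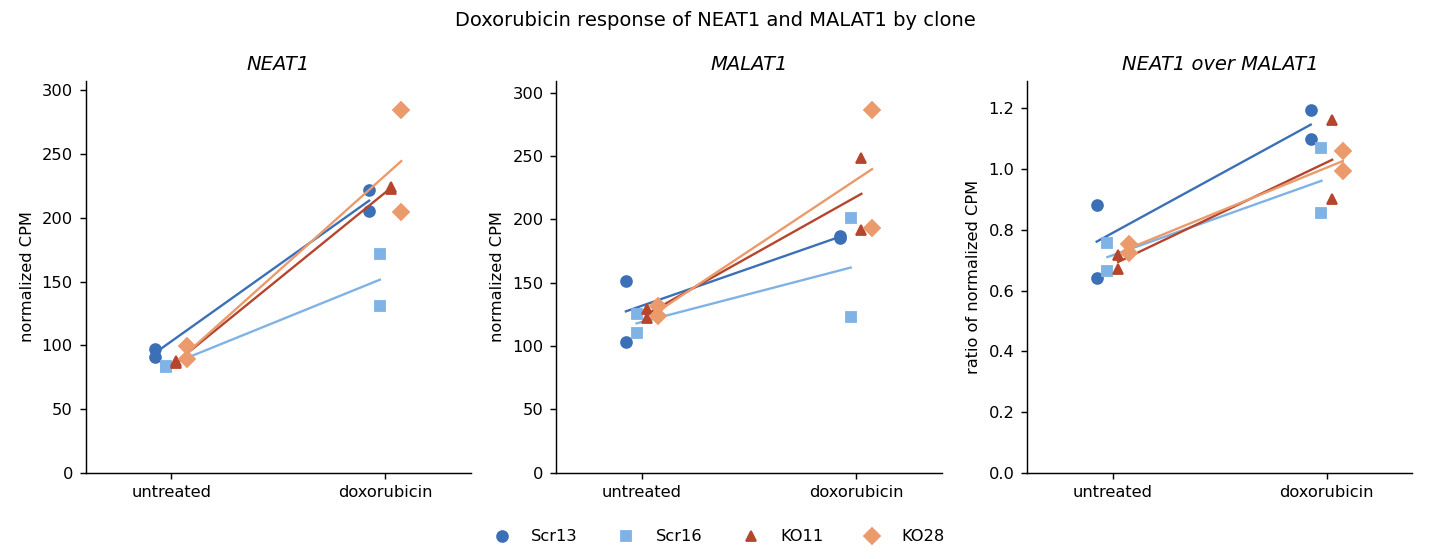
NEAT1 and MALAT1 in normalized CPM and the ratio of the first to the second (vertical axes, linear from 0) in untreated and doxorubicin-treated libraries, with 1 point per library and a line joining the means of each clone. All 4 clones rise in all 3 panels, and the NEAT1 line of Scr16 rises least, from a mean of 83.4 to 151.

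Of 14 listed genes of paraspeckle proteins, all with a row and all tested, 7 were called lower with doxorubicin in Scr, where 5.24% of all genes tested were called lower, and 8 in KO-labelled clones, where 8.35% were. None was called higher, and the median estimates were -0.25 and -0.24, with all 14 below 0 in both, called or not. SFPQ, which binds NEAT1 and is needed to form the body, fell by 0.59 ± 0.09 (log2, SE; adjusted p 0.000209, limma) in Scr, from a mean of 624 to 420 normalized CPM, and by 0.56 ± 0.07 (adjusted p 1.71e-06) in KO-labelled clones, from 647 to 440. SRSF10 fell by 0.49 in Scr and by 0.35 in KO-labelled clones, both called. NONO, the most abundant gene of the list and the usual partner of SFPQ, was called in KO-labelled clones, where it fell by 0.22 ± 0.07 (adjusted p 0.0339), and was at -0.05 ± 0.06 in Scr; that difference between genotypes was not called (interaction, adjusted p 0.670). PSPC1 fell by 0.41 in Scr and was at -0.14, not called, in KO-labelled clones. Summed over the list, the level was 5167 ± 74.96 normalized CPM (SD, n = 4) in untreated Scr libraries and 4354 ± 291 with doxorubicin, and 5224 ± 90.1 and 4301 ± 38.9 in KO-labelled ones.

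**Figure D3:**
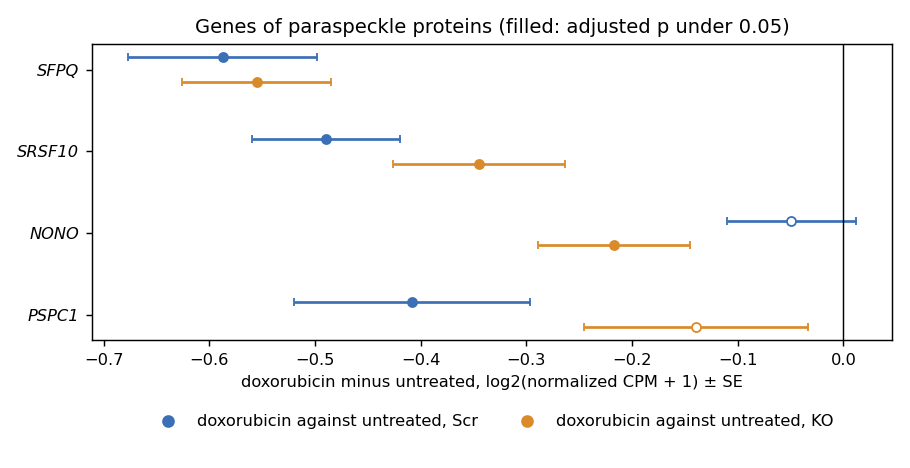
Difference between doxorubicin and untreated libraries (horizontal axis, log2 of normalized CPM + 1, with bars of ± SE) for the 4 genes of paraspeckle proteins described singly (SFPQ, SRSF10, NONO and PSPC1), in Scr (blue) and KO-labelled (orange) clones, filled where the adjusted p was under 0.05. Every point lies below 0, from -0.05 for NONO in Scr to -0.59 for SFPQ in Scr.

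Genes of nuclear speckles, where MALAT1 resides, were split. SRSF1, SRSF2 and SRSF3, splicing factors of the SR family, were called lower in both genotypes, by 0.58, 0.54 and 0.48 in Scr and by 0.70, 0.70 and 0.44 in KO-labelled clones (log2). Over all genes tested, 5.24% were called lower in Scr and 8.35% in KO-labelled clones. The other 7 of the 10 listed genes were not called in either, among them the speckle core genes SON at -0.12 and SRRM2 at 0.03 in Scr. METTL16, which binds the end of MALAT1, was at -0.09 in Scr and -0.25 in KO-labelled clones, neither called. FRMD8 and LTBP3, which lie near NEAT1 and MALAT1 on chromosome 11, were not called with doxorubicin in either genotype: FRMD8 was at -0.19 and 0.19, and LTBP3 at 0.12 and 0.16, in Scr and KO-labelled clones. An antisense gene annotated across MALAT1 had no row, and whether the counting used strand is not stated, so reads of a gene and its antisense partner cannot be told apart.

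Of the 4 hosts of small nucleolar RNAs among the members, GAS5, named for its rise in growth-arrested cells, was called with doxorubicin in KO-labelled clones, and no other host was called. GAS5 held 108 and 92.2 normalized CPM in KO11 and 96.4 and 108 in KO28 without drug, and 105 and 142 in KO11 and 113 and 132 in KO28 with doxorubicin. In Scr it held between 103 and 115 without drug, and 135 and 79.3 in Scr13 and 143 and 113 in Scr16 with doxorubicin. GAS5-AS1, annotated across GAS5 exons on the other strand, had a mean of 2.19 normalized CPM. Treated and untreated libraries overlapped in both genotypes, and the pair of treated Scr13 libraries spanned nearly the whole range. The difference was 0.27 ± 0.09 (log2, SE; adjusted p 0.0343, limma) in KO-labelled clones and 0.07 ± 0.12 (adjusted p 0.780) in Scr, and the difference between the genotypes was not called (0.20 ± 0.17, interaction, adjusted p 0.805). The KO-labelled call was lost without replicate 2 of KO11 with doxorubicin (difference 0.18, adjusted p 0.197) and in 9 alternatives in all.

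SNHG1, which holds several small nucleolar RNAs in its introns, was at 48.7 and 43.1 (Scr13), 48.3 and 40.7 (Scr16), 41.3 and 41.3 (KO11) and 47.9 and 44.9 (KO28) normalized CPM without drug. With doxorubicin it was at 44.1 and 43.0 (Scr13), 52.2 and 44.0 (Scr16), 37.3 and 42.1 (KO11) and 37.5 and 35.6 (KO28). The treated KO-labelled libraries were all below the treated Scr libraries, by less than 1 normalized CPM at the nearest pair. SNHG5 ranged from 48.8 to 81.1 and SNHG15 from 11.05 to 25.9 normalized CPM over all libraries, and their groups overlapped in every comparison. No doxorubicin response of SNHG1, SNHG5 or SNHG15 was called: the estimates in Scr were 0.02 ± 0.10, -0.04 ± 0.09 and -0.31 ± 0.21, and in KO-labelled clones -0.20 ± 0.10, -0.22 ± 0.10 and 0.14 ± 0.15 (log2, SE). For SNHG1 in Scr the 95% interval ran from -0.20 to 0.23.

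Of 24 other hosts listed, 21 had a row. With doxorubicin in Scr, 18 were tested, SNHG8 was called higher (0.47) and SNHG14 (-0.60) and DANCR (-0.54) lower. Beside these and the lists that follow, 7.10% of all genes tested were called higher and 5.24% lower in Scr. The shares were 11.3% and 8.35% in KO-labelled clones. There, 19 of the other hosts were tested and DANCR alone was called, falling by 0.80 ± 0.14 (log2, SE; adjusted p 0.000117, limma), from 45.3 to 25.6 normalized CPM. SNHG29, the most abundant of them, was at 0.18 in Scr and 0.22 in KO-labelled clones, not called. Genes of nonsense-mediated decay, the pathway that turns over these spliced RNAs, were tested at 14 of 14: RBM8A, of the exon junction complex, was called lower in Scr (-0.30), and UPF3B (-0.48), UPF1 (-0.43), EIF4A3 (-0.40) and RBM8A (-0.25) in KO-labelled clones. UPF1, the helicase at the centre of the pathway, was at -0.25 in Scr, not called (adjusted p 0.0745). Among 10 regulators of TOP mRNAs, PABPC1 (0.32) was called higher and TIA1 (-0.30) and EIF4EBP2 (-0.25) lower in Scr, and EIF4EBP1 (-0.38), CNBP (-0.25) and EIF4EBP2 (-0.23) lower in KO-labelled clones, while LARP1, which binds the TOP sequence, was at 0.05 and -0.06, not called.

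TUG1 and PVT1, both described as p53 targets, were not called. TUG1 held 381, 396, 412 and 355 normalized CPM in untreated Scr libraries and 356, 362, 369 and 362 with doxorubicin, and 406, 415, 408 and 346 in untreated KO-labelled libraries against 403, 389, 416 and 366 with doxorubicin. The values lay within the same range in all 4 groups. The 95% interval of the doxorubicin difference was -0.22 to 0.05 in Scr and -0.15 to 0.15 in KO-labelled clones (log2), so a rise of more than 1.03-fold and 1.11-fold lay outside it. MORC2, across its promoter, was at -0.13 and -0.15, not called. PVT1 was between 3.11 and 5.62 normalized CPM in untreated Scr libraries and between 3.57 and 5.40 with doxorubicin, and between 3.65 and 5.18 and between 4.53 and 7.95 in KO-labelled ones. Its difference was 0.06 ± 0.24 in Scr and 0.41 ± 0.22 in KO-labelled clones. MYC, its neighbour, was called lower in both, by 0.80 ± 0.13 (log2, SE; adjusted p 0.000331, limma) in Scr, from 57.1 to 32.8 normalized CPM, and by 1.09 ± 0.12 (adjusted p 1.33e-07) in KO-labelled clones, from 61.2 to 28.6.

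The coding targets of p53 show the size of the response that these members can be set against. All 20 listed genes were called higher with doxorubicin in both genotypes, with medians of 1.53 in Scr and 1.49 in KO-labelled clones (log2). CDKN1A rose from 57.0 to 337 normalized CPM in Scr and from 136 to 736 in KO-labelled clones. Of 13 other symbols listed as noncoding genes linked to p53, 7 had a row, of which WRAP53 is a protein-coding gene and was not called. LINC01021, without a row, is another name of PURPL. PURPL rose by 2.16 ± 0.28 in Scr and 2.15 ± 0.26 in KO-labelled clones, and TP53TG1 by 0.78 ± 0.23 and 1.00 ± 0.18, and these 2 were called in both of the responses. PINCR, at 0.0437 normalized CPM in untreated Scr libraries and 1.79 with doxorubicin, was tested only in KO-labelled clones, where it rose by 2.33 ± 0.28 (adjusted p 7.24e-07). NORAD, a cytoplasmic RNA that binds Pumilio proteins, was at -0.03 in Scr, not called, and rose by 0.34 ± 0.07 in KO-labelled clones; the difference between genotypes was not called (interaction, adjusted p 0.133).

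H19, an imprinted RNA that shares enhancers with IGF2 and serves as the precursor of a microRNA, was low. Untreated it held 10.6 and 2.88 (Scr13), 5.77 and 7.72 (Scr16), 8.04 and 6.08 (KO11) and 6.97 and 8.24 (KO28) normalized CPM. With doxorubicin it held 10.2 and 8.71 (Scr13), 13.1 and 9.61 (Scr16), 20.9 and 11.9 (KO11) and 10.99 and 17.2 (KO28). Only the KO-labelled groups did not overlap, and the 2 untreated Scr13 libraries differed by the largest ratio of any clone and treatment. The difference was 0.93 ± 0.20 (log2, SE; adjusted p 0.00137, limma) in KO-labelled clones and 0.65 ± 0.27 (adjusted p 0.124) in Scr, and the difference between the genotypes was not called (0.27 ± 0.35, interaction, adjusted p 0.903). Without clone KO11 the KO-labelled estimate was 0.78 (adjusted p 0.117), and without Scr13 untreated replicate 1 the Scr estimate was 0.97 (adjusted p 0.0140). IGF2, expressed from the paternal copy of the same locus, was called higher in all 4 comparisons: its mean was 204 normalized CPM in untreated Scr, 522 in untreated KO-labelled, 429 in treated Scr and 948 in treated KO-labelled libraries.

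MEG3 was all but undetected. Its 18 reads over the 16 libraries were 4 in KO11 untreated replicate 2, 7 in KO11 doxorubicin replicate 1, 2 in KO28 doxorubicin replicate 1, 2 in each of Scr13 untreated replicate 1 and Scr16 untreated replicate 2, and 1 in Scr16 doxorubicin replicate 2, and the other 10 libraries were at 0. A count of 0 allows up to between 0.118 and 0.285 normalized CPM, taking 3 reads in libraries of these depths and counting error only. MEG3 did not pass the filter and was not tested. MEG8 and MEG9, maternally expressed RNAs of the same cluster, were at most 0.0472 normalized CPM in the mean of any group. The paternally expressed coding genes of the cluster were abundant, with DLK1 at 268 normalized CPM and RTL1 at 638 in untreated Scr libraries. DLK1 was called higher in all 4 comparisons, and RTL1 in all except between genotypes with doxorubicin (0.13, adjusted p 0.470).

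**Figure D4:**
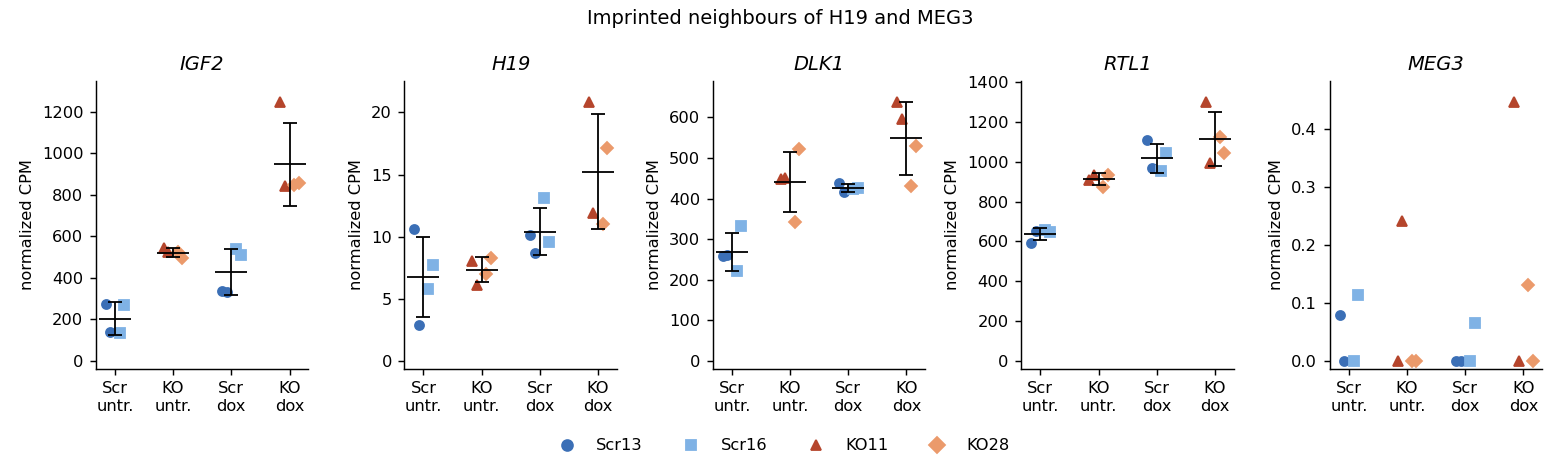
Normalized CPM (vertical axes, linear, a separate scale for each gene) of IGF2 and H19, neighbours on chromosome 11, and of DLK1, RTL1 and MEG3, neighbours on chromosome 14, with 1 point per library, shape and colour for the clone, and mean ± SD of 4 libraries in black (not drawn for MEG3). IGF2 rises from a mean of 204 in untreated Scr to 948 in KO-labelled libraries with doxorubicin, while the highest library of MEG3 is at 0.448.

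Between genotypes, no member was called without drug. With doxorubicin the calls of NEAT1 and MALAT1 depended on the model and on the libraries used. In untreated cells 0 of 9 members tested were called, where 4.84% of 14364 genes were, and no member's groups failed to overlap, where those of 9.29% of all genes did. None had an unadjusted p under 0.05 in that comparison by limma, and edgeR and DESeq2 called 0 as well. The untreated estimates lay between -0.24 for SNHG15 and 0.21 for H19, with a median of 0.03, and for NEAT1 the 95% interval was -0.14 to 0.20. In doxorubicin-treated cells 0 of 9 members were called by limma, edgeR or DESeq2, where 8.69% of 14572 genes were called by limma, while 5 had an unadjusted p under 0.05: NEAT1 (0.37 ± 0.12, log2, SE; adjusted p 0.0670) and MALAT1 (0.40 ± 0.13, adjusted p 0.0634), with H19 (0.48 ± 0.20, adjusted p 0.175) higher in the libraries labelled TRPM2 KO, and SNHG1 (-0.26 ± 0.10, adjusted p 0.157) and SNHG5 (-0.22 ± 0.10, adjusted p 0.188) lower. SNHG1 alone did not overlap between these groups, where the groups of 13.2% of all genes did not. Each genotype holds 2 clones, so the alternatives by clone that follow rest on at most 2 clones against 2. With the clone as a random block, NEAT1 (adjusted p 0.0496) and MALAT1 (adjusted p 0.0394) passed the threshold, and on clone means MALAT1 did (adjusted p 0.00985). NEAT1 and MALAT1 also passed this threshold with a replicate block. Both passed it without clone Scr13 (0.63, adjusted p 0.00148, and 0.53, adjusted p 0.0434), whereas without clone Scr16 the estimates were 0.12 (adjusted p 0.598) and 0.28 (adjusted p 0.197). Their clone means with doxorubicin were 223 and 220 in KO11, 244 and 240 in KO28, 213 and 186 in Scr13 and 151 and 162 in Scr16.

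Of the other lists, 16 of 20 p53 targets were called higher in treated KO-labelled libraries than in treated Scr libraries and 8 of 19 in untreated ones, none of them lower. Among the p53-linked noncoding genes, PURPL (1.06), PINCR (1.04) and NORAD (0.37) were called higher in treated KO-labelled libraries. Among the 19 other hosts tested between treated genotypes, SNHG14 (0.64) was called higher and SNHG7 (-0.49) lower, where 8.69% of all genes were called. None of the paraspeckle, speckle, decay or TOP genes was called between genotypes in either treatment. The difference of the 2 doxorubicin responses was called for 0 of 9 members, where 0.0261% of 15325 genes were called, and only NEAT1 had an unadjusted p under 0.05 (0.34 ± 0.13, adjusted p 0.479). The 4 comparisons share libraries, so their estimates for a gene are not independent.

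**Figure D5:**
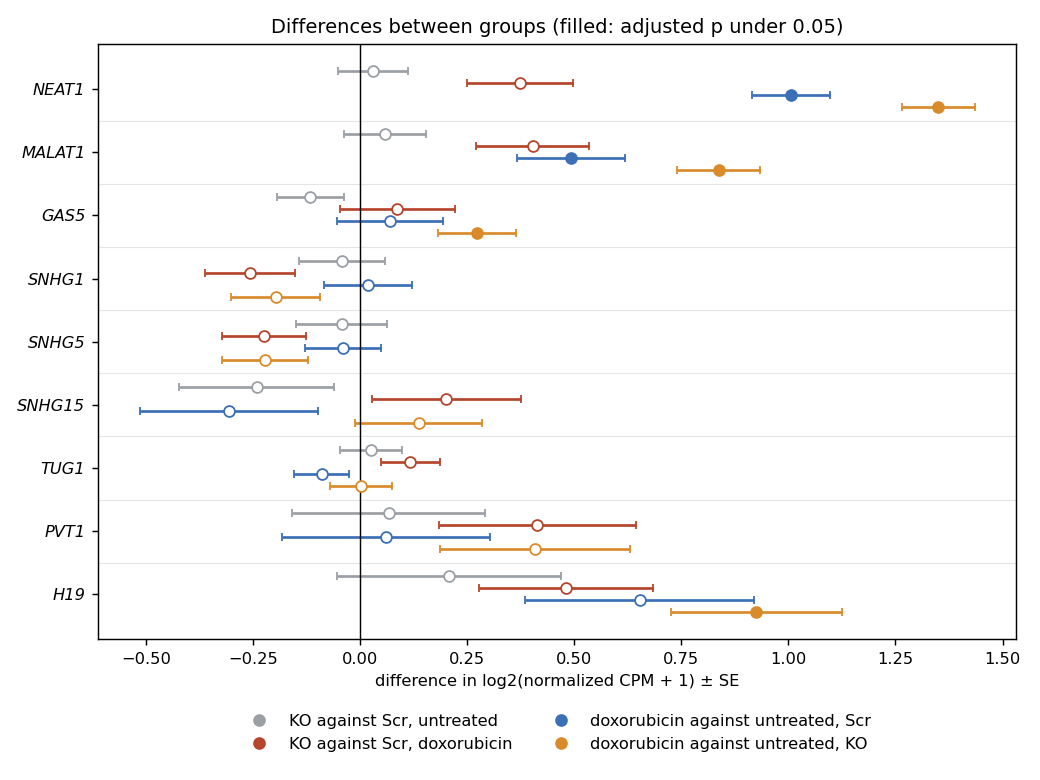
Differences between groups (horizontal axis, log2 of normalized CPM + 1, with bars of ± SE) for the 9 members tested in 4 comparisons, filled where the adjusted p over all genes was under 0.05. The filled points are NEAT1 and MALAT1 with doxorubicin in both genotypes, and GAS5 and H19 with doxorubicin in KO-labelled clones.

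Across the 16 libraries the members did not vary as 1 group. NEAT1 and MALAT1 were the most alike pair (Pearson r of log2 values 0.918, and 0.741 after the group means were removed), while NEAT1 with GAS5 was at 0.363 and -0.120. These correlations describe 16 libraries that share clones and treatment and carry no test. Among 10051 other genes with a mean of at least 10 normalized CPM (10052 for H19 and PVT1), the pattern most like that of NEAT1 was that of SLC12A4 (r = 0.978), AGRN (0.971) and NRBP2 (0.971), and that of MALAT1 was NEAT1, then MICALL2 (0.917) and PABPC1L (0.912). GAS5 was most like TPT1 (0.937), RPS7 (0.863) and RPL9 (0.855), of which the latter 2 encode ribosomal proteins. TUG1 was most like EPM2AIP1 (0.937), H19 like PTPRU (0.902), SNHG1 like CAT (0.852), SNHG15 like GABRA3 (0.839), PVT1 like ZNF667 (0.787) and SNHG5 like CNPY3 (0.778).

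Other features of the libraries moved with the groups. Reads of the 15 mitochondrial genes made up 4.58% of the reads on average in untreated Scr libraries, 5.10% in untreated KO-labelled, 5.35% in treated Scr and 7.01% in treated KO-labelled ones, and the most abundant was MT-RNR2. Of these 15 genes, none was called between untreated genotypes, 4 were called higher in treated KO-labelled than in treated Scr libraries, 8 higher with doxorubicin in KO-labelled clones, and 3 higher and 1 lower in Scr. Their summed normalized CPM was 1.33-fold higher in treated KO-labelled than in treated Scr libraries (exact permutation test, two-sided, p = 0.0857, adjusted 0.229 over 8 such tests), 1.41-fold higher with doxorubicin in KO-labelled clones (p = 0.0571, adjusted 0.229) and 1.19-fold in Scr (p = 0.0286, the smallest that 4 against 4 libraries can give, adjusted 0.229). With these genes left out of the library size, the members called were the same in every comparison. RNAs without a poly(A) tail, of which 7 of 16 listed had a row, summed to between 6.16 and 36.0 normalized CPM, with RNU4-2 the most abundant. With doxorubicin their mean sum was 1.504-fold that of untreated libraries in Scr (exact permutation p = 0.514) and 0.628-fold in KO-labelled clones (p = 0.429).

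Markers of other cell types also moved with the genotype label. Of 13 listed, 9 had a row, and COL3A1, COL1A1, DCN and LUM, genes of fibroblast matrix, were called higher in KO-labelled libraries in both treatments and none lower. Their list summed to 65.7 normalized CPM on average in untreated Scr and 210 in untreated KO-labelled libraries, and to 42.1 and 224 with doxorubicin, with 1 library high in each Scr group: Scr13 untreated replicate 1 was at 158 (mean of the other 3, 35.0) and Scr16 doxorubicin replicate 1 at 96.2 (mean of the other 3, 24.1). The most abundant was COL3A1, at 175 and 189 in the KO-labelled groups. COL1A2 was at most 2.22 and DCN at most 7.09 normalized CPM in the mean of any group, and of the epithelial genes KRT8 was at 0 in 3 groups and at 0.0317 in the treated KO-labelled one, while the group means of KRT18 lay between 0.613 and 0.960 and those of EPCAM between 0.388 and 0.857. VWF, of endothelial cells, had group means between 0.437 and 1.02. The part of these genes in the differences of NEAT1 and MALAT1 was not tested. In bulk RNA of this kind, fewer cells that express a gene and less of its RNA per cell cannot be told apart.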

How the data were processed

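Poly(A) RNA-seq libraries were prepared with a directional kit, and per the labels HISAT2 2.1.0, HTSeq and edgeR were used on GRCh38; the use of strand in counting is not stated. The deposited signal is normalized CPM, which the authors computed by scaling reads per gene to library size and a factor for each library (0.974 to 1.03); 100% of values gave whole reads within 0.001. The factors match a single normalization of all 16 libraries within 0.0149 (log2), so untreated and treated libraries were compared directly. The authors' p-values, q-values, log fold changes and rankings were not used. No column was left unmapped. Symbols and positions come from GENCODE release 29, which holds 95.9% of the IDs.

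A gene was tested if it reached 1 normalized CPM in 4 or more libraries of a comparison, by limma 3.58.1 (R 4.3.3) with a mean-variance trend on log2(normalized CPM + 1) and Benjamini-Hochberg adjustment at 0.05. Genotypes were compared within each treatment without a term for the clone, and treatments within each genotype, and their interaction, with the clone as a fixed term. Alternatives included edgeR 4.0.16 and DESeq2 1.42.0 on the recovered reads, other pseudocounts and filters, library size alone, terms for clone or replicate, and leaving out each library or clone. On recovered reads edgeR called 636 genes between genotypes without drug and 1194 with it, and 1647 (Scr) and 2694 (KO-labelled) between treatments. Libraries of a clone and treatment differed by 7.79 to 16.9 times counting noise (chi-square per gene with at least 20 reads in both), so none was treated as a library deposited more than once; separate preparations of 1 RNA could also differ by this much. The members and gene lists were chosen with earlier results of these data known. All members are described; of other lists, the called genes with the largest differences (up to 4 in a comparison) and the most abundant gene are named, and further genes (among them SON, METTL16, NONO, LARP1, UPF1, TH, FRMD8 and LTBP3) were picked for their known roles. Some listed genes are counted with their list and not reported singly here.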

Additional observations from a re-analysis of the deposited data

Results flagged for a closer look

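SNHG1 was at 52.2 normalized CPM in Scr16 doxorubicin replicate 1, while the other 3 libraries of its group lay between 43.0 and 44.1. TUG1 was at 346.0 in KO28 untreated replicate 2, against 405.5 to 414.8 in the other 3. Each gap to the nearest library was too large a share of the range of its group by Dixon's 95% limit, which chance passes in about 1 of 20 groups, and 36 groups of member values were examined. Among 92 further groups, of summed lists and single genes, 5 passed the same limit. The summed level of the nonsense-mediated decay genes was low in KO28 untreated replicate 2 (1512, others 1587 to 1597) and in KO28 doxorubicin replicate 2 (1410, others 1441 to 1446). The summed imprinted genes were high in KO11 doxorubicin replicate 1 (3776, others 2950 to 3053), as was IGF2 in it (1249, others 842 to 856). The RNAs without a poly(A) tail summed to 24.9 in Scr16 untreated replicate 2, against 6.16 to 8.94 in the others.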

How the results depend on the processing

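Calls of NEAT1 with doxorubicin in both genotypes, and of MALAT1 in KO-labelled clones, held in every alternative run. In Scr clones 1 member in place of 2 was called with no filter, by DESeq2, without clone Scr13 and without clone Scr16, each time NEAT1, and between 1 and 3 members without single libraries: MALAT1 was lost without Scr13 untreated replicate 2, Scr13 doxorubicin replicate 1, Scr16 untreated replicate 2 or Scr16 doxorubicin replicate 1, and H19 was gained without Scr13 untreated replicate 1. In KO-labelled clones 2 members in place of 4 were called without clone KO11 (NEAT1 and MALAT1), and 3 to 4 without single libraries, with SNHG5 in place of GAS5 without KO11 doxorubicin replicate 2. Between genotypes with doxorubicin, where 0 members were called, 1 (MALAT1) was called on clone means, 2 (NEAT1 and MALAT1) with the clone as a random block and without clone Scr13, and 0 to 1 without single libraries: MALAT1 without KO11 doxorubicin replicate 1 or Scr16 doxorubicin replicate 1, and NEAT1 without either Scr13 library. No member was called between genotypes without drug, or in the interaction, in any alternative. The cause of these changes was not tested beyond the smaller number of libraries.

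Libraries that share a replicate number were slightly more alike by the median, with overlapping ranges. The 8 pairs that share a clone and a number across treatments had a median correlation of 0.058 (range -0.037 to 0.222) of their deviations from group means. It was 0.019 (-0.139 to 0.128) for the 8 pairs of a clone with different numbers. Between clones of different groups, the medians were 0.017 (40 pairs, -0.097 to 0.103) with the same number and -0.015 (40 pairs, -0.150 to 0.085) with different ones. What the numbers stand for is not stated and was not tested. With a replicate block 2 members (NEAT1 and MALAT1) were called between genotypes with doxorubicin, and 25 genes in place of 4 in the interaction.

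Counts of genes moved more. Between genotypes without drug 695 became 368 with no filter, 458 with at least 10 normalized CPM, 362 without clone Scr13 and 364 without Scr16 (538 to 711 without single libraries). With doxorubicin 1266 became 574 without clone KO11 and 629 without KO28 (863 to 1342 without single libraries). Between treatments in Scr 1774 became 831 with no filter, 264 without clone Scr13 and 760 without Scr16 (1091 to 1760 without single libraries), and in KO-labelled clones 2846 became 1040 without KO11 (2049 to 2895 without single libraries). The interaction count of 4 became 1 with a pseudocount of 0.1, 23 with 5, 2 with no filter, 10 by edgeR, 53 by DESeq2, 0 without clone KO11 by limma (with 1259 genes at an unadjusted p under 0.05), 10 without Scr13, 1 without Scr16 and 1 without KO28 (1 to 19 without single libraries). Ratios of summed mitochondrial reads kept their direction without single libraries, between 1.02 and 1.22 (genotypes, untreated), 1.25 and 1.43 (genotypes, doxorubicin), 1.15 and 1.22 (treatments, Scr) and 1.296 and 1.547 (treatments, KO-labelled), as did those of RNAs without a poly(A) tail, between 1.20 and 2.46, 0.557 and 0.988, 1.01 and 2.33, and 0.531 and 0.834.

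Signs changed, always with an adjusted p over 0.05, as follows (log2). Between genotypes without drug, leaving out clone KO11 gave 0.040 for SNHG1, 0.12 for SNHG5, -0.067 for PVT1 and -0.038 for TUG1, leaving out Scr13 gave -0.22 for PVT1, leaving out Scr16 gave -0.055 for NEAT1 and 0.049 for SNHG5, and leaving out KO28 gave -0.026 for NEAT1. With doxorubicin, leaving out Scr13 gave -0.060 for GAS5. Between treatments in Scr, leaving out Scr13 gave -0.38 for PVT1, leaving out Scr16 gave -0.072 for GAS5, -0.074 for SNHG1 and 0.053 for SNHG5, and library size alone gave -0.0080 for SNHG1. In KO-labelled clones TUG1 was at -0.030 with library size alone, -0.016 by edgeR, -0.013 by DESeq2 and -0.050 without KO28. The interaction of PVT1 was -0.10 without Scr16. Without single libraries, estimates between genotypes without drug spanned -0.013 to 0.075 (NEAT1), -0.020 to 0.165 (MALAT1), -0.14 to 0.050 (SNHG5), -0.014 to 0.086 (TUG1), -0.046 to 0.18 (PVT1) and -0.088 to 0.44 (H19), that of GAS5 with doxorubicin -0.089 to 0.19, those between treatments in Scr -0.064 to 0.19 (PVT1), -0.054 to 0.25 (GAS5), -0.049 to 0.071 (SNHG1) and -0.11 to 0.0043 (SNHG5), that of TUG1 in KO-labelled clones -0.055 to 0.039, and the interaction of H19 -0.047 to 0.58. The setting without mitochondrial genes in the library size and those for summed reads were chosen after the data were seen.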
